A study of Mus musculus with 6 samples.

Results

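Ionotropic and metabotropic glutamate receptors and the auxiliary subunits that travel with them were followed in mouse hippocampus in which a short form of ATF6 was expressed from the Rosa26 locus. The members were set by a rule on gene symbols, and the set was chosen with earlier results of these data known. It takes AMPA receptor genes Gria1 to Gria4, NMDA receptor genes Grin1, Grin2a to Grin2d, Grin3a and Grin3b, and kainate receptor genes Grik1 to Grik5. Also taken are the delta receptor genes of the Grid series and the metabotropic receptor genes of the Grm series. The auxiliary genes are Neto1, Neto2, Cnih2 to Cnih4, Shisa6, Shisa7, Shisa9 and Gsg1l. Of 36 symbols this rule allows, 34 were listed among the 17385 genes of the authors' deposited table. The other 2 are Grm6, which was not analysed here, and Cnih1, which is listed under its older name Cnih and so falls outside the rule. Cnih had a log2 fold change of -0.09 ± 0.07 per the authors' deposited table (the authors' DESeq2 test, adjusted p = 0.634).

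Messenger RNA of the whole hippocampus was sequenced in 3 control and 3 sATF6-KI C57BL/6 mice, all 2 months old. Control mice carried Emx1-Cre, and sATF6-KI mice carried the same Cre together with Rosa26-sATF6-MER, an allele that joins short-form ATF6 to MER, so both groups carried the Cre and the transgene was the difference between them. Emx1-Cre acts in the lineage of forebrain excitatory neurons and in some glia, the tissue was not sorted, and whether a ligand of MER was given is not stated in the sources used here. The values available per gene are the authors' mean normalized expression over all libraries (baseMean) and their comparison of sATF6-KI with control. Values per library carry names that match no sample label, so no value per mouse is given, and the sequencing depth is unknown here. Atf6 and Esr1, the mouse genes that correspond to parts of the transgene, served as a check of the labels. They were at 0.51 ± 0.06 and 6.09 ± 0.10 on the log2 scale per the authors' deposited table. How far reads of the transgene enter these values was not tested. Markers of hippocampal excitatory neurons were well represented, with a baseMean of 159768 for Camk2a and 54530 for Slc17a7 and of 5769 for Prox1, a marker of dentate granule cells.

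Glutamate is the main excitatory transmitter of the hippocampus. AMPA, NMDA and kainate receptors are tetrameric cation channels that are assembled in the ER and must fold and leave it before they reach the synapse, while metabotropic receptors are G-protein-coupled. Auxiliary subunits such as cornichons, Shisa proteins and Neto proteins bind the assembled channels and alter their export, surface level or gating. ATF6 is an ER-anchored transcription factor whose released cytosolic part raises ER folding genes.

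Few glutamate receptor genes differed between the groups. In the authors' deposited table, 2 of the 34 were called at an adjusted p under 0.05, and both fell in sATF6-KI: the cornichon Cnih2 and the kainate receptor partner Neto1. Both are auxiliary subunits. Over all 17385 genes, 5.34% were called, 1.93% as lower and 3.41% as higher, so 2 of 34 is near the share among all genes. The authors' DESeq2 test called none of the 25 pore-forming or metabotropic receptor genes, with 1 lower and 2 higher at an unadjusted p under 0.05.

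The fold changes of the members lay close to 0. In the authors' deposited table, 16 members had a negative and 18 a positive log2 fold change, with a median of 0.01 against 0.00 over all genes. The middle of the members, from the lower to the upper quartile, ran from -0.07 to 0.08, against -0.09 to 0.14 over all genes. At an unadjusted p under 0.05, 3 members were lower (Cnih2, Neto1 and Gria1) and 3 higher (Cnih3, Grm4 and Grm8), and all genes gave 15.8%, with 7.59% lower and 8.20% higher. For 20 of the 34 the 95% Wald interval lay wholly within a fold change of 1.2 in either direction, compared with 34.6% of all genes and 47.1% of genes with a baseMean of at least 100. The members are abundant: their median baseMean was 2838 against 622 over all genes, and a higher level goes with a smaller error of the fold change. The interval is computed from the log2 fold change and the Wald statistic of the authors' deposited table, as are all errors after ± below.

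**Figure D1:**
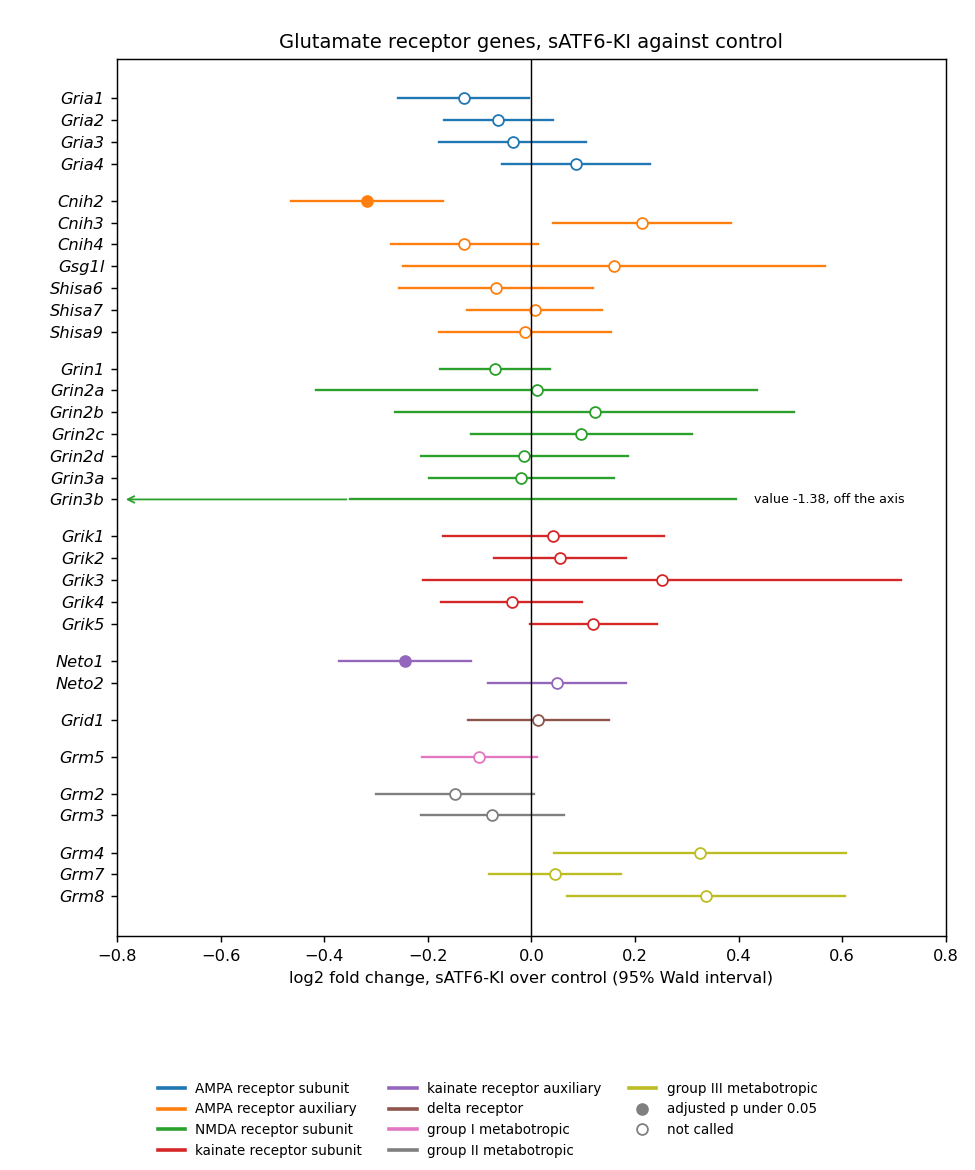
Log2 fold change of sATF6-KI over control (x axis) for 32 of the 34 glutamate receptor and auxiliary genes (y axis), coloured by role; points are the authors' fold changes, bars are 95% Wald intervals, filled points are called at an adjusted p under 0.05. The filled points are Cnih2 at -0.32 and Neto1 at -0.24, and the value of Grin3b, at -1.38, lies off the axis with its interval drawn as an arrow.

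Levels of the members, averaged over both groups, ranged widely. Per kilobase of merged exon, Cnih2 had the highest baseMean of the 34 at 9784, followed by Gria1 at 7559, Gria2 at 2595 and Grin1, the obligatory subunit of NMDA receptors, at 2149. Grik5 at 1845, Grm5 at 1383, Shisa7 at 1175 and Cnih3 at 1051 came next. Grin3b, a glycine-binding NMDA receptor subunit, was lowest at 1.75 per kilobase, and Grm8 was also low at 33.5. These levels have no spread over mice, and the lengths come from GENCODE M21, which may not be the annotation the authors counted on, so neighbours in this order cannot be told apart.

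The order within families depended in part on the length used. Gria1 held 64.9% of the summed AMPA receptor level per kilobase of merged exon and 45.6% per kilobase of coding length, with Gria2 next at 22.3% and 41.4%. Cnih2 held between 76.4% and 87.2% of the level of Cnih2 to Cnih4 under the 3 lengths tried, and Grik5 between 49.2% and 65.1% of the kainate receptor level. Among the metabotropic receptors Grm5 led under each length, at 39.5% to 50.8%. Among Grin2a to Grin2d the leader changed: Grin2c held 56.5% per kilobase of merged exon, whereas Grin2b led with 36.5% per kilobase of coding length. With merged exons the highest member of each of the 9 role groups was Gria1, Cnih2, Grin1, Grik5, Neto1, Grid1, Grm5, Grm3 and Grm7, and with coding length Grm2 replaced Grm3.

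**Figure D2:**
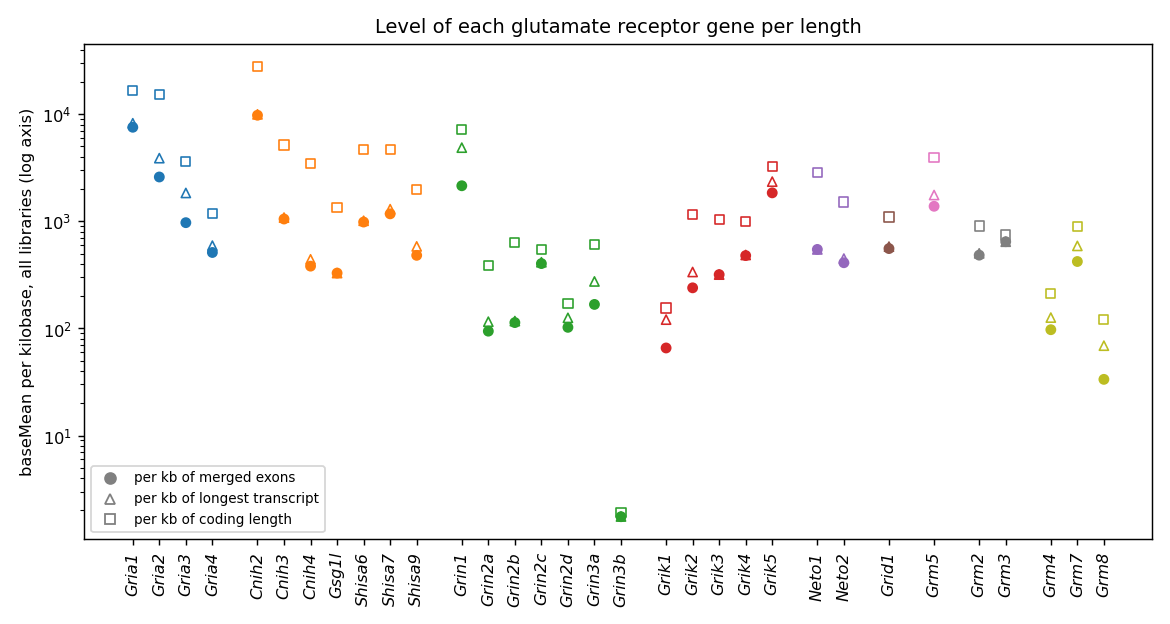
Level of 32 of the 34 genes as the authors' baseMean over all libraries per kilobase (y axis, log scale), by gene (x axis) and coloured by role, with circles for merged exon length, triangles for the longest transcript and squares for coding length. Cnih2 and Gria1 are highest at 9784 and 7559 per kilobase of merged exon, and Grin3b is lowest at 1.75.

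AMPA receptor subunits carry most fast excitatory transmission in the hippocampus. The authors' DESeq2 test called none of the 4, and 1 was lower at an unadjusted p under 0.05. Gria1, the subunit most tied to activity-dependent insertion at CA1 synapses, had a log2 fold change of -0.13 ± 0.06 per the authors' deposited table, with p = 0.0438 and an adjusted p = 0.295. Its 95% interval reached 1.19-fold lower at one end and almost no change at the other. Gria2, whose edited form makes the channel nearly impermeable to calcium, was at -0.06 ± 0.05 per the authors' deposited table, Gria3 at -0.04 ± 0.07 and Gria4 at 0.09 ± 0.07. The intervals of all 4 lay within a fold change of 1.2 in either direction, with a baseMean of 45678 for Gria1, 40347 for Gria2, 9584 for Gria3 and 3228 for Gria4.

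Of the cornichons, 1 was called. Cnih2, which promotes export of AMPA receptors from the ER and slows their closing, fell 1.25-fold per the authors' deposited table (95% interval 1.13 to 1.38; log2 fold change -0.32 ± 0.07; the authors' DESeq2 test, adjusted p = 0.00117). Its change was larger than the median of -0.25 over the 336 genes called as lower. Cnih3, the closest relative with the same known role, was at 0.21 ± 0.09 per the authors' deposited table, with p = 0.0147 and an adjusted p = 0.155. The 95% intervals of Cnih2 (-0.46 to -0.17) and Cnih3 (0.04 to 0.38) did not overlap, and the difference between the pair was not itself tested because no values per mouse were used. Cnih4, a cornichon known from export of G-protein-coupled receptors, was at -0.13 ± 0.07 per the authors' deposited table (adjusted p = 0.383). Cnih2 lies on chromosome 19 from 5092868 to 5098521 on the minus strand and Cnih3 on chromosome 1 from 181352628 to 181460641 on the plus strand (GRCm38, GENCODE M21).

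Cnih2 and Cnih3 are related genes with values of opposite sign, and Hspa5, the ER chaperone BiP, is a standard target of ATF6. Hspa5 was 5.41-fold higher per the authors' deposited table. Their promoter windows, 250 bases before to 50 after the RefSeq start (GRCm38.p6), are therefore shown side by side, 5′ to 3′ on the gene's strand, with capitals marking CCAAT or CCACG on either strand, which are the ends of the ER stress response element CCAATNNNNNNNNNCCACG. The windows are chr19:5098472-5098771 on the minus strand, chr1:181352378-181352677 on the plus strand and chr2:34771840-34772139 on the plus strand.
Cnih2: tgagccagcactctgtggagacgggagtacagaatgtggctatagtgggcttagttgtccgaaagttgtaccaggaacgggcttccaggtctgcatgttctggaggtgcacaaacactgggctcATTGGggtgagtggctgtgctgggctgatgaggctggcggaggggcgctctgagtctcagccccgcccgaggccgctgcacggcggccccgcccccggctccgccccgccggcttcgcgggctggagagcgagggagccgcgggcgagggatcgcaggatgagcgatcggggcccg
Cnih3: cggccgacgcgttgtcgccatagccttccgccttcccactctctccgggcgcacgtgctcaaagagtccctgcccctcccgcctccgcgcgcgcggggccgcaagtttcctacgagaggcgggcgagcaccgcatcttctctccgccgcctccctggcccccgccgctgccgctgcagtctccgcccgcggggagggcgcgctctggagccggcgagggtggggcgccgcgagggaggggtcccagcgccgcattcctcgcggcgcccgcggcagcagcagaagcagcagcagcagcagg
Hspa5: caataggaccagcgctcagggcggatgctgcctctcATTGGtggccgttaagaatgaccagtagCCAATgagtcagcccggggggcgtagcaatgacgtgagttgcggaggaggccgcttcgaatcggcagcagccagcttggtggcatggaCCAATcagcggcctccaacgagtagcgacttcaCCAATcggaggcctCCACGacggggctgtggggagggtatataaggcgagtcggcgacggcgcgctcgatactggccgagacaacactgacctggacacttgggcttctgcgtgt
The Hspa5 window holds 4 CCAAT and 1 CCACG, of which 1 pair forms the whole element. The Cnih2 window holds 1 CCAAT, on the other strand, and no CCACG, and the Cnih3 window holds neither.

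Other receptor promoters were searched in the same way. RefSeq windows were matched for 19 of the 34 members, 23 windows in all, and 15 members, Neto1 and Gria1 among them, had none in the table used. None of the 23 held the element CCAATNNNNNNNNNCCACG, the related ATTGGNCCACG or TGACGTGG, each searched on both strands. Among all 32851 windows 0.119% held the first, 0.0365% the second and 0.676% the third. With shares this small, finding none in 23 windows is usual for genes in general. CCACG alone, which also lies inside all 3 motifs, in TGACGTGG on the other strand, was in 7 of the 23 member windows (30.4%) and in 32.8% of all windows. For comparison, windows were matched for 13 of the 16 ER chaperone genes counted below, and 7 of these 13 windows held the whole element. These matches describe letters in short windows and say nothing of binding.

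The remaining AMPA receptor partners among the members were not called. Shisa6, Shisa7 and Shisa9 encode transmembrane proteins that alter AMPA receptor desensitization or recovery. They were at -0.07 ± 0.10, 0.01 ± 0.07 and -0.01 ± 0.08 on the log2 scale per the authors' deposited table. Gsg1l, a claudin-like subunit known to dampen AMPA receptor currents, was at 0.16 ± 0.21 per the authors' deposited table, and its interval from -0.25 to 0.57 leaves room for a change in either direction.

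NMDA receptors are heteromers of Grin1 with Grin2 or Grin3 products and act as coincidence detectors at synapses. The authors' DESeq2 test called none of their 7 genes, and none had an unadjusted p under 0.05. Grin1 was at -0.07 ± 0.05 per the authors' deposited table, with an interval of -0.18 to 0.04. Grin2a and Grin2b, the main forebrain partners of Grin1, were at 0.01 ± 0.22 and 0.12 ± 0.20 per the authors' deposited table, so that changes of 1.33-fold lower and 1.42-fold higher lie at the edges of their intervals, respectively. Grin2c was at 0.10 ± 0.11, Grin2d at -0.01 ± 0.10 and Grin3a at -0.02 ± 0.09 per the authors' deposited table. Grin3b, with a baseMean of 5.76, was at -1.38 ± 0.91 per the authors' deposited table (adjusted p = 0.503), and 32.1% of its annotated exon bases overlap those of Tmem259 on the other strand. At that level the interval spans 8.90-fold lower to 1.31-fold higher.

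Kainate receptor channels were not called either, again with none at an unadjusted p under 0.05 by the authors' DESeq2 test. Of these 5 genes 4 had positive values. Grik5, a high-affinity subunit that needs a partner from Grik1 to Grik3, was nearest to the threshold at 0.12 ± 0.06 per the authors' deposited table (p = 0.0545, adjusted p = 0.330). Grik4, the other high-affinity subunit, was at -0.04 ± 0.07 per the authors' deposited table. Grik1 was at 0.04 ± 0.11, Grik2 at 0.06 ± 0.07 and Grik3 at 0.25 ± 0.24 per the authors' deposited table, the last with an interval of -0.21 to 0.71.

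Neto1, which slows kainate receptor gating and was also described as a partner of NMDA receptors, fell 1.18-fold per the authors' deposited table (95% interval 1.08 to 1.29; log2 fold change -0.24 ± 0.06; the authors' DESeq2 test, adjusted p = 0.00627). It lies on chromosome 18 from 86394952 to 86506718 on the plus strand (GRCm38, GENCODE M21). Neto2, its paralog with a like role at kainate receptors, was at 0.05 ± 0.07 per the authors' deposited table (adjusted p = 0.834), with an interval of -0.08 to 0.18. The intervals of Neto1 (-0.37 to -0.12) and Neto2 did not overlap, and this difference was not itself tested. Both calls depend on the threshold: with a Bonferroni correction neither Cnih2 nor Neto1 was called, and with a fold change of at least 1.2 Cnih2 alone was. In both pairs the gene that fell was the one with the higher level per length. Per kilobase of merged exon, Cnih2 was at 9784 against 1051 and Neto1 at 547 against 411. These levels have no spread over mice. Genes called as lower were abundant in general, with a median baseMean of 5022 against 622 over all genes.

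Delta receptors, which bind cerebellins across the synapse and pass little current, were represented by Grid1 at 0.01 ± 0.07 per the authors' deposited table. The authors' DESeq2 test did not call it, with an unadjusted p = 0.843 and an interval of -0.12 to 0.15.

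Metabotropic receptors fall into 3 groups by sequence and coupling. In group I, which signals through Gq and phospholipase C, Grm5 was at -0.10 ± 0.06 per the authors' deposited table (adjusted p = 0.388). In group II, which inhibits adenylyl cyclase, Grm2, found at mossy fibre terminals, was at -0.15 ± 0.08 per the authors' deposited table (p = 0.0592, adjusted p = 0.344) and Grm3 at -0.08 ± 0.07. Group III holds presynaptic receptors coupled to Gi, and its 3 listed genes all had positive values. Grm8 was at 0.34 ± 0.14 per the authors' deposited table (p = 0.0138, adjusted p = 0.148) and Grm4 at 0.33 ± 0.14 (p = 0.0240, adjusted p = 0.210), which are the 2 highest values of the 34 members. Their intervals ran from 1.05-fold to 1.52-fold and from 1.03-fold to 1.52-fold higher. Both are low among the members, with a baseMean of 331 and 582, where the median is 2838 over the members and 622 over all genes. Grm7, with a baseMean of 2483, was at 0.05 ± 0.07 per the authors' deposited table.

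Some members varied more than genes of their level do. The Wald standard error of each member was set against those of the 1000 genes nearest to it in baseMean, a comparison chosen after the values were seen. It exceeded 95% of them for 7 of the 34, namely Grik3, Grin2a, Grin2b, Grin2c, Grm4, Gsg1l and Shisa6. For Grik3 the error was 3.41 times the median of its neighbours, for Grin2a 2.87 times, for Grin2b 2.85 times and for Gsg1l 2.59 times. Among all 7056 genes with a baseMean of at least 1000, 1.22% had an error over 2 times that median, and among the 28 members at that level these 4 did. At the other end, Gria2 had an error below all but 4.8% of its neighbours and Grin1 below all but 6.0%. Whether 1 mouse, 1 group or all of them carry the spread was not tested, since no values per mouse were used. For these 4 genes 1 Wald error was between 0.20 and 0.24 on the log2 scale, against a median of 0.07 over the members. Of the 34 only Grin3b, with the lowest baseMean, had a larger error, at 0.91.

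**Figure D3:**
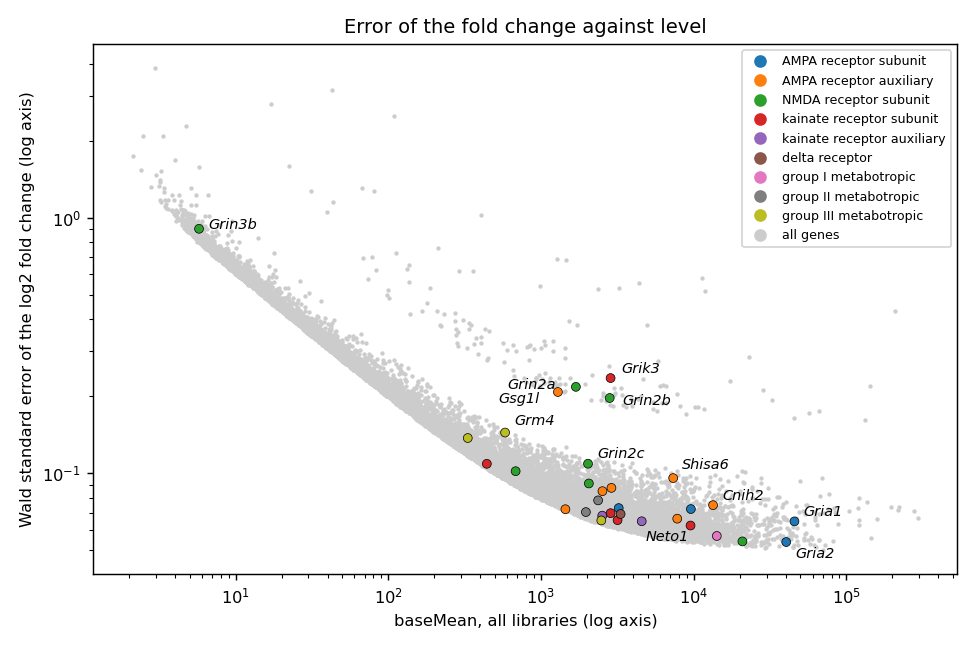
Wald standard error of the log2 fold change (y axis, log scale) against the authors' baseMean over all libraries (x axis, log scale) for all 17385 genes in grey and 32 of the 34 glutamate receptor genes coloured by role. Grik3, Grin2a, Grin2b and Gsg1l lie in a sparse band above the main cloud, at 2.59 to 3.41 times the median error of genes of their level, whereas Gria2 and Grin1 lie near its lower edge.

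Proteins that work with these receptors were looked at through 5 lists of 106 listed genes that share no member with the rule. The lists were written with earlier results of these data known, so their counts are no independent evidence. In the authors' deposited table, 15 of the 106 fell and 4 rose at an adjusted p under 0.05, with a median log2 fold change of -0.04. Over all genes 1.93% fell and 3.41% rose, as above. The levels are unlike: the median baseMean was 5436 for the 106 genes and 622 over all genes. For the genes called as lower it was 5022.

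Of 28 kinases, phosphatases and other signalling genes 8 fell and none rose per the authors' deposited table, with a median of -0.11. Itpka, which phosphorylates inositol trisphosphate in spines, was at -0.49 ± 0.07 per the authors' deposited table, and Camk2b, a subunit of the kinase that phosphorylates AMPA receptors during potentiation, at -0.34 ± 0.06. Ppp3ca and Ppp3r1, a catalytic and the regulatory subunit of calcineurin, which opposes that kinase, were at -0.31 ± 0.07 and -0.22 ± 0.07 per the authors' deposited table. Prkca and Prkcb, conventional protein kinase C genes, were at -0.29 ± 0.07 and -0.19 ± 0.06 per the authors' deposited table. Rasgrf1, a calcium-responsive Ras exchange factor, and Gnai1, an inhibitory G-protein subunit, were at -0.20 ± 0.07 and -0.18 ± 0.06 per the authors' deposited table. All 8 had an adjusted p between 2.98e-09 and 0.0494 in the authors' DESeq2 test.

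Of 22 postsynaptic scaffold and adhesion genes 4 fell and 1 rose per the authors' deposited table, with a median of -0.08. Homer3 and Homer1, which tie group I metabotropic receptors to the scaffold, were at -0.61 ± 0.10 and -0.24 ± 0.07 per the authors' deposited table. Dlg4, the gene for PSD-95 that anchors NMDA receptors and AMPA receptor complexes, was at -0.18 ± 0.06, and Shank3 at -0.22 ± 0.06. Synpo, an actin-binding protein of the spine apparatus, rose, with 0.29 ± 0.06 per the authors' deposited table.

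Of 30 further AMPA receptor partners 3 fell and 1 rose per the authors' deposited table, with a median of -0.03. Nsf, the ATPase that binds Gria2, was at -0.27 ± 0.06 per the authors' deposited table, Olfm1, an extracellular partner of AMPA receptors, at -0.20 ± 0.06 and Nptxr, the neuronal pentraxin receptor, at -0.20 ± 0.07. Rap2b, a small GTPase, rose, at 0.20 ± 0.06 per the authors' deposited table. The 6 TARP genes in this list (Cacng2 to Cacng5, Cacng7 and Cacng8), which encode the best-known AMPA receptor auxiliary subunits, held no call of the authors' DESeq2 test and none at an unadjusted p under 0.05. Cacng8, the main hippocampal TARP, was at -0.08 ± 0.06 per the authors' deposited table, and Cacng5 was lowest at -0.49 ± 0.25.

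Of 19 genes of glutamate transport, release and metabolism 1 rose per the authors' deposited table and none fell, with a median of -0.01. It was Got1, the cytosolic aspartate aminotransferase, at 0.20 ± 0.06, and Slc17a7, the vesicular glutamate transporter of these neurons, was at -0.17 ± 0.06 with an adjusted p = 0.071. Of 7 C1q-like and cerebellin ligands, which bind kainate and delta receptors, 1 rose per the authors' deposited table: Cbln1, at 0.83 ± 0.16. C1ql2 and C1ql3, mossy fibre proteins that recruit kainate receptors, were at -0.24 ± 0.10 and -0.18 ± 0.10 per the authors' deposited table and were not called. Against this, 15 of 16 ER chaperone genes rose and none fell per the authors' deposited table, with a median log2 fold change of 1.32.

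**Figure D4:**
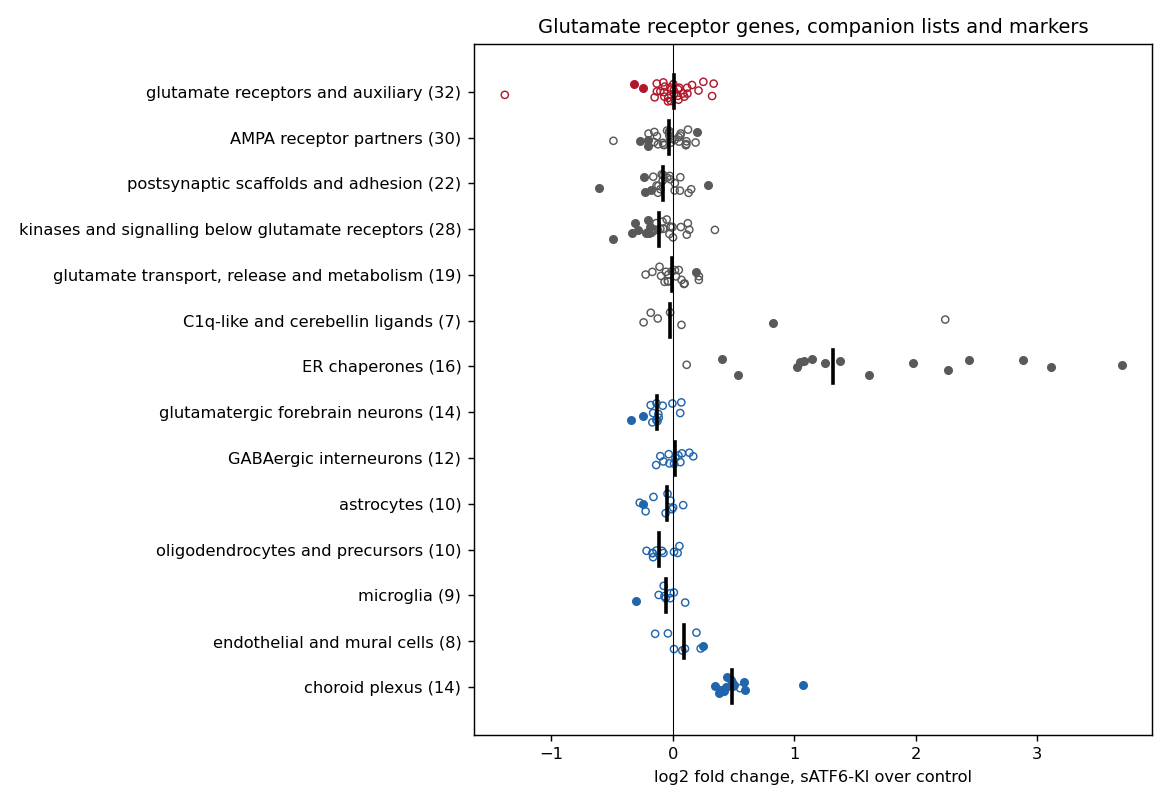
Log2 fold change of sATF6-KI over control (x axis) for 32 of the 34 glutamate receptor genes in red, the companion lists in grey and the cell type markers in blue (y axis, number of genes in brackets); filled points are called at an adjusted p under 0.05 and black bars are medians. The median of all 34 receptor genes is 0.01, that of the signalling list -0.11, of ER chaperones 1.32 and of choroid plexus markers 0.49.

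Cell type markers were compared between the groups in the same way. Of 14 markers of glutamatergic forebrain neurons, 2 fell and none rose per the authors' deposited table, with -0.13 as the median log2 fold change and a range from -0.34 to 0.07. Cnih2 and Neto1, at -0.32 ± 0.07 and -0.24 ± 0.06 per the authors' deposited table, and Gria1, at -0.13 ± 0.06, had the same sign as that median. Of 14 choroid plexus markers 12 rose per the authors' deposited table, with a median of 0.49 and a range from 0.35 to 1.07, and of 8 endothelial and mural markers 1 rose, with a median of 0.09 and a range from -0.14 to 0.25. Grm4, Grm8 and Cnih3, at 0.33 ± 0.14, 0.34 ± 0.14 and 0.21 ± 0.09 per the authors' deposited table, had the same sign as both medians. All of these genes were picked at an unadjusted p under 0.05 and grouped by sign, so a shared sign says nothing of cell types. The medians of the astrocyte, microglia and oligodendrocyte lists below were negative as well, and that of the interneuron list was positive. Interneuron markers had a median of 0.02 and held no call of the authors' DESeq2 test and none at an unadjusted p under 0.05 in 12. Of 10 astrocyte markers 1 fell, Aldoc at -0.25 per the authors' deposited table (adjusted p = 0.0389), and of 9 microglia markers 1 fell, P2ry12 at -0.30 (adjusted p = 0.00563), while none of 10 oligodendrocyte markers was called by the authors' DESeq2 test. Their medians were -0.05, -0.06 and -0.11. At an unadjusted p under 0.05, 4 astrocyte, 1 microglia and 3 oligodendrocyte markers were lower, against 6 of the 14 glutamatergic markers and 7.59% of all genes. Slc17a7 and Camk2a among the glutamatergic markers, and Slc1a2 and Slc1a3 among the astrocyte markers, are also counted in the receptor partner lists above. No listed marker had a baseMean of 0, and the part of any cell type in the receptor values was not tested. In RNA of whole hippocampus, fewer cells of a type and less RNA per cell cannot be told apart.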

How the data were processed

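Hippocampal messenger RNA was measured in 3 control and 3 sATF6-KI mice, with libraries from a stranded KAPA kit per the labels' protocols. The submitters' processing notes name Trim Galore, cutadapt, STAR, HTSeq and DESeq2; versions, build, annotation, strand setting and filters are not stated there or in the labels. The deposited table gives, per the file headers, baseMean (a mean normalized expression signal), a log2 fold change, a Wald statistic (a score with no fixed range), a p-value and an adjusted p-value. The 6 columns of values per library match no sample label and were used in no step.

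The Wald error used here is the ratio of the log2 fold change to its Wald statistic. It was 1.21 times the deposited standard error in the median gene and 16.1 times for Grin3b, so the deposited error was not used. Calls are the authors' DESeq2 test at an adjusted p under 0.05 on 3 mice a group; edgeR was not run because no counts per labelled sample were used. Of the IDs, 17166 of 17385 and all 34 members were found in GENCODE M21 (GRCm38), the source of lengths and coordinates; promoters are RefSeq's. Exons of 17 members overlap another annotated gene, which leaves their values uncertain to that extent, with 13.5% of Grin1 and 9.66% of Grin2d exon bases antisense to another gene. Counts and medians cover all 34 members, of which 2 are not reported singly here; figures show the other 32. The members and lists were chosen with earlier results of these data known. Named by rule were called members, members at an unadjusted p under 0.05, the highest of each role group, and called genes of the receptor partner lists. Called ER chaperone and marker genes were not all named. Other genes were named after their values were seen. Python 3.11.15 with scipy 1.17.1, numpy 2.4.6, matplotlib 3.10.9 and pandas 2.3.3 was used. The p-value adjustment and the intervals were run on fold changes simulated with the Wald errors of these data, which checks the code alone. Levels, shares and the comparison of errors were not simulated.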

Additional observations from a re-analysis of the deposited data

How the results depend on the processing

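With another threshold of the authors' adjusted p, 0.01 or 0.1, with a baseMean of at least 10 or 100, and with protein-coding genes alone, Cnih2 and Neto1 remained the 2 receptor genes called. None was called by Bonferroni (0), and 1, Cnih2, with a fold change of at least 1.2. These settings tighten the call by construction. The 928 calls over all genes became 514 at 0.01 and 268 by Bonferroni. Over the 122 companion genes, ER chaperones among them, the 34 calls became 19 by Bonferroni. They were 15 lower and 19 higher before, and 3 lower and 16 higher after. The fold change divided by the deposited standard error, an alternative chosen after seeing the data for counts of calls, gave 6 receptor genes (Cnih3, Grin3b, Grm4 and Grm8 beside Cnih2 and Neto1) and 4794 genes in all, since that error is smaller than the Wald error. Signs cannot alter here, because every setting takes the fold change as deposited. Of the 9 role groups, 9 had the same highest member with the longest transcript and 8 with coding length. No paired analysis was possible because the columns of single libraries carry names that match no sample label. Not run for the same reason were fits without single replicates, edgeR and DESeq2 fits, limma with other pseudocounts, and filters on values per sample. Depth per mouse is unknown here, so the precision of each value is that of the authors' test.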

Other observations

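Values of paralogs are set side by side here, and the differences between them were not tested. Among group I metabotropic receptors and their Homer partners, Grm5 was at -0.10 ± 0.06 on the log2 scale per the authors' deposited table, while Homer1 was at -0.24 ± 0.07, Homer2 at -0.16 ± 0.06 and Homer3 at -0.61 ± 0.10. Homer2 was not called (the authors' DESeq2 test, adjusted p = 0.116). Among the calcium-dependent kinase genes, Camk2b was at -0.34 ± 0.06, Camk2a at -0.13 ± 0.07 and Camk2d at 0.35 ± 0.26 per the authors' deposited table, the last with an error of the size seen for Grik3 and Grin2a. Cbln3, a cerebellin of low level here with a baseMean of 66.9, was at 2.24 ± 1.31 per the authors' deposited table and was not called (adjusted p = 0.415). Pick1, a scaffold that binds Gria2, was at 0.19 ± 0.07 and Nsf, which binds the same subunit, at -0.27 ± 0.06 per the authors' deposited table; Pick1 was not called (adjusted p = 0.130). These genes were named after their values were seen.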
